A study of Mus musculus with 23 samples.

Results

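CAST/EiJ was compared with C57BL/6J in testis RNA of male mice across both diets of the study. All 7 CAST/EiJ libraries and all 8 C57BL/6J libraries entered, 15 of the 23 libraries in the series, and they were chosen by the strain in their labels. CAST/EiJ is a wild-derived inbred strain of the castaneus subspecies, and C57BL/6J is the laboratory strain from which the mouse reference genome was made. The labels give wild type as the genotype of every animal. Diets began at 6 weeks of age and testes were taken at 16 weeks. The control diet had 10% fat with fiber (3 CAST/EiJ and 4 C57BL/6J libraries), and the diet high in fat and sugar had 44% fat with fiber (4 and 4). The third strain, NZO/HlLtJ, was not part of the comparison. PolyA RNA was read as 100 bp pairs, and the deposited values were estimated counts per gene. Levels below are CPM, counts scaled to the TMM-adjusted size of each library. A log2 fold change is CAST/EiJ minus C57BL/6J with diet in the model, followed by a standard error (SE). This SE was worked back from the fold change and its F test, and is not a direct error of the estimate. It understates the error of large changes that rest on few counts in either strain. Gm13341, described below, carries 12.87 ± 0.14 with only 23 counts over the C57BL/6J libraries.

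The testis holds seminiferous tubules, in which Sertoli cells support germ cells from spermatogonia through meiosis to elongating spermatids, and an interstitium in which Leydig cells make testosterone under luteinizing hormone. Germ cells contribute most of its RNA, and they transcribe many noncoding RNAs, pseudogenes and multicopy genes of the X and Y chromosomes that are silent in most other tissues. House mouse subspecies are known to differ in these multicopy genes and in immune genes. In whole tissue, fewer cells of a type and less RNA per cell cannot be told apart.

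The labelled tissue was borne out by its markers. Prm1, which packages sperm DNA, lay between 1096 and 1495 CPM over the 15 libraries, and the Leydig hormone Insl3 between 65.0 and 148 CPM. The Sertoli gene Sox9 lay between 15.2 and 22.2 CPM, while Amh, which falls to low levels in adults, lay between 0.516 and 1.36 CPM. Totals ran from 21918905 to 38392948 estimated counts in C57BL/6J and from 32981163 to 78691070 in CAST/EiJ. Markers of epididymis stood out in 1 library of each strain. Crisp1 was at 96.7 CPM in CAST/EiJ 44% fat replicate 2 against at most 0.183 CPM in the other CAST/EiJ libraries, and at 12.8 CPM in C57BL/6J 10% fat replicate 2 against at most 1.26 CPM. Spink8 was at 23.9 CPM in the same CAST/EiJ library and between 3.54 and 4.76 CPM in the others. Without these 2 libraries 14482 genes differed, in place of the 15049 reported next.

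Most of the testis transcriptome differed between the strains. Of 22278 genes tested, 15049 (67.6%) differed at an adjusted p under 0.05, with 7340 (32.9%) higher and 7709 (34.6%) lower in CAST/EiJ. The median log2 fold change over all genes was -0.005, so the calls lay on both sides of no change. At 2-fold or more, 1879 genes (8.43%) were higher and 2948 (13.2%) were lower. The CAST/EiJ and C57BL/6J libraries did not overlap in 8865 genes (39.8%).

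**Figure D1:**
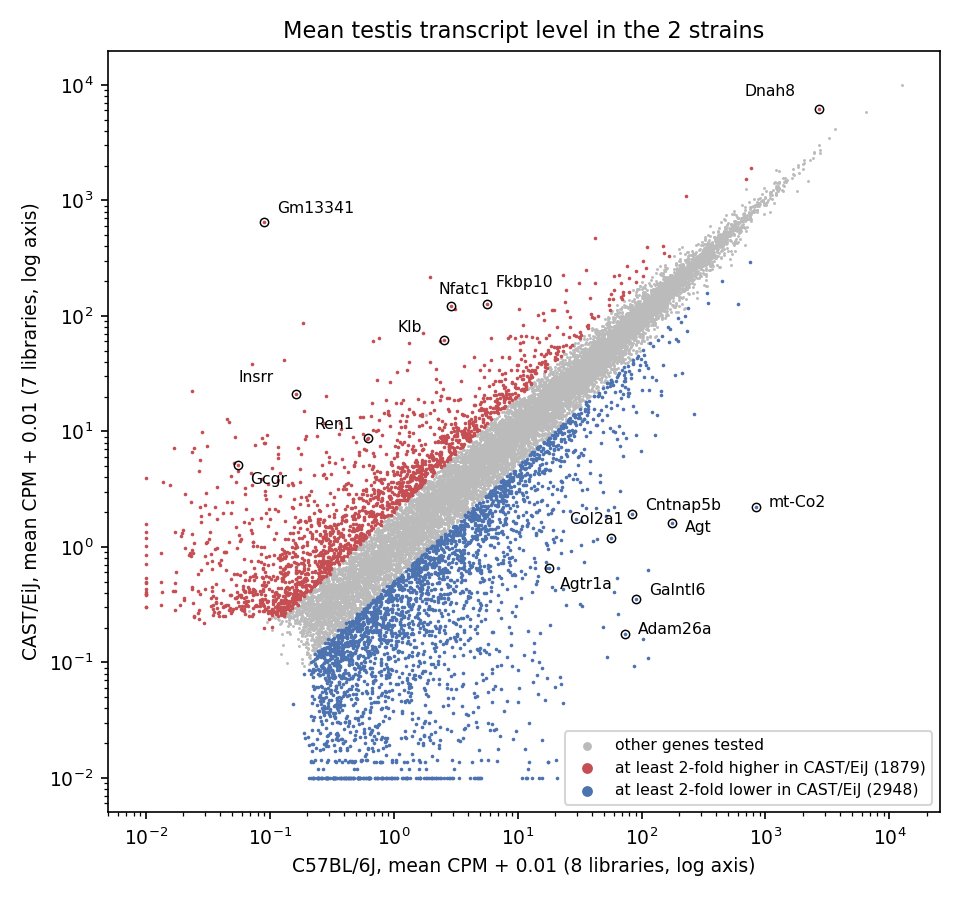
Mean CPM plus 0.01 of each gene tested in C57BL/6J (x axis, 8 libraries) and CAST/EiJ (y axis, 7 libraries), both on log axes. Red points are the 1879 genes at least 2-fold higher and blue points the 2948 genes at least 2-fold lower in CAST/EiJ, and the circled genes are described in the text or label extremes.

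Among the genes tested, the excess of genes that were 2-fold lower lay mainly outside protein-coding genes. Among 17083 protein-coding genes, 7.41% passed 2-fold as higher and 8.78% as lower. Among 3881 long noncoding genes the shares were 9.46% and 27.8%, and among 1166 pseudogenes 19.6% and 27.6%. Abundance moved with these shares too. Of the 6058 genes with a mean over 30 CPM, 1.87% passed 2-fold as higher and 2.03% as lower, against 17.6% and 35.3% of the 1704 genes under 0.3 CPM. The part that sequence differences from the C57BL/6J reference play in lower counts of CAST/EiJ was not tested. The deposited genes were above 0 in at least 12 libraries of the series. Genes read only in CAST/EiJ (7 libraries) or only in C57BL/6J (8 libraries) are therefore missing. A gene absent from either strain stayed only if NZO/HlLtJ libraries held it too. Whether this filter removed more of the higher than of the lower genes, and so added to the excess, was not tested.

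The strain difference was seen on both diets. On 10% fat 12186 genes (54.7%) differed, 26.1% as higher and 28.6% as lower. On 44% fat 12859 genes (57.7%) differed, 27.9% as higher and 29.9% as lower, and 10703 genes were called on both diets in 1 direction. Only 3 genes were called in opposite directions, all outside the rule for named genes. They were Gm10855, at 0.159 CPM in CAST/EiJ and 0.368 in C57BL/6J on 10% fat and at 0.428 and 0.169 on 44% fat, and Fam205a2 and Fam205a3, which hold identical values and cannot be told apart. The direct test of whether the strain difference depended on diet called 0 genes (0%) with edgeR, DESeq2 and limma. Of 22278 genes tested, 893 had an unadjusted p under 0.05 with edgeR, fewer than the 1 in 20 that chance alone would give. The smallest p belonged to Gm38120, a gene of unknown role, with a change of the strain difference by 1.75 ± 0.35 on the log2 scale and an adjusted p of 0.967.

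Of the 20 Leydig cell genes tested, 6 were higher and 8 lower in CAST/EiJ, with a median of -0.161. The share called was close to the 67.6% of all genes. Lhcgr, the receptor for luteinizing hormone (chromosome 17, 88741549 to 88791976), had 13.1, 16.2 and 19.3 CPM as lowest, median and highest in CAST/EiJ and 6.05, 7.53 and 10.7 in C57BL/6J. Every CAST/EiJ library was above every C57BL/6J library, with a log2 fold change of 1.07 ± 0.09 (adjusted p 4.59e-10). Cyp11a1, the enzyme that cleaves the cholesterol side chain as the first step of steroid synthesis, averaged 149 ± 24.1 CPM (SD, n = 7) against 107 ± 15.98 (n = 8), with ranges that overlapped and a log2 fold change of 0.50 ± 0.08 (adjusted p 4.13e-06). Its electron donor Fdx1 was higher by 0.50 ± 0.07, with 22.8 against 16.2 CPM and no overlap.

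Cyp17a1 and Hsd3b6, which act after that step, were lower. Cyp17a1, which makes androgen precursors, had 120, 165 and 208 CPM in CAST/EiJ and 182, 280 and 337 CPM in C57BL/6J. The ranges overlapped, and the log2 fold change was -0.76 ± 0.09 (adjusted p 1.62e-07). Hsd3b6, a steroid dehydrogenase of Leydig cells (chromosome 3, 98805504 to 98814443), had 25.1, 32.8 and 36.7 CPM in CAST/EiJ and 51.8, 90.2 and 98.1 in C57BL/6J. The strains did not overlap, and the log2 fold change was -1.38 ± 0.12 (adjusted p 4.38e-10). Insl3, the peptide hormone that guides testicular descent, was at 79.9 ± 12.6 against 134 ± 9.23 CPM (-0.75 ± 0.07), and Scarb1, the receptor that takes up cholesterol from lipoproteins, at 75.0 ± 7.94 against 113 ± 6.61 (-0.59 ± 0.05). Fabp3, a fatty acid carrier, was at 39.7 ± 2.54 against 78.3 ± 7.02 CPM (-0.98 ± 0.05). Star, which moves cholesterol into mitochondria, ranged from 55.9 to 119 CPM in CAST/EiJ and from 46.5 to 115 CPM in C57BL/6J and was not called (-0.20 ± 0.14, adjusted p 0.220). Summed over the 20 genes, Leydig markers held 1003 to 1251 CPM in CAST/EiJ and 1387 to 1708 CPM in C57BL/6J. Agt, which is on the list, has 177 CPM of the C57BL/6J sum, more than the gap between these ranges.

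The renin-angiotensin system, in which renin cuts angiotensinogen and the converting enzyme Ace trims the product into angiotensin II, held some of the widest differences. Of 15 genes tested 6 were higher and 8 lower (93.3% called, against 67.6% of all genes), and 3 in each direction passed 2-fold. Without the 2 libraries with epididymal transcripts, 4 were higher and 7 lower. Agt, which encodes angiotensinogen (chromosome 8, 124556534 to 124569706), had 1.37, 1.59 and 1.82 CPM in CAST/EiJ and 160, 176 and 200 CPM in C57BL/6J. No library of either strain came near the other group, and the log2 fold change was -6.80 ± 0.07 (adjusted p 2.17e-27).

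The main angiotensin receptor gene Agtr1a (chromosome 13, 30336441 to 30382867) had 0.439, 0.580 and 0.868 CPM in CAST/EiJ and 16.6, 17.6 and 21.1 in C57BL/6J, with a log2 fold change of -4.77 ± 0.10 (adjusted p 1.01e-21). Its related gene Agtr1b was higher, at 1.802 ± 0.25 against 0.828 ± 0.11 CPM (1.13 ± 0.13). The part of reads shared between these related genes was not tested, and the sum of both was 2.45 ± 0.22 CPM in CAST/EiJ and 18.9 ± 1.44 in C57BL/6J. Ren1, which encodes renin (chromosome 1, 133350510 to 133360325), went the other way, with 6.21, 9.71 and 10.0 CPM in CAST/EiJ and 0.487, 0.556 and 1.08 in C57BL/6J. It did not overlap either, and was higher by 3.84 ± 0.14 (adjusted p 6.14e-17).

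Among the peptidases, Enpep was at 1.35 ± 0.41 against 0.453 ± 0.17 CPM (1.60 ± 0.24, ranges overlapped) and Mme, neprilysin, at 8.73 ± 2.45 against 18.2 ± 1.96 CPM (-1.07 ± 0.11). The highest Mme value of CAST/EiJ, 14.2 CPM, was in the library with epididymal transcripts, and Mme was lower by 1.23 on the log2 scale without both such libraries. Ace, which has a testis form in spermatids, was far closer between strains, at 578 ± 37.1 against 635 ± 53.4 CPM (-0.14 ± 0.05, adjusted p 0.00999). In the fit of group means its adjusted p was 0.0381 on 10% fat and 0.138 on 44% fat. It was not called when the 10% fat libraries were fitted alone (adjusted p 0.0869) or without the 2 libraries (adjusted p 0.0506).

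**Figure D2:**
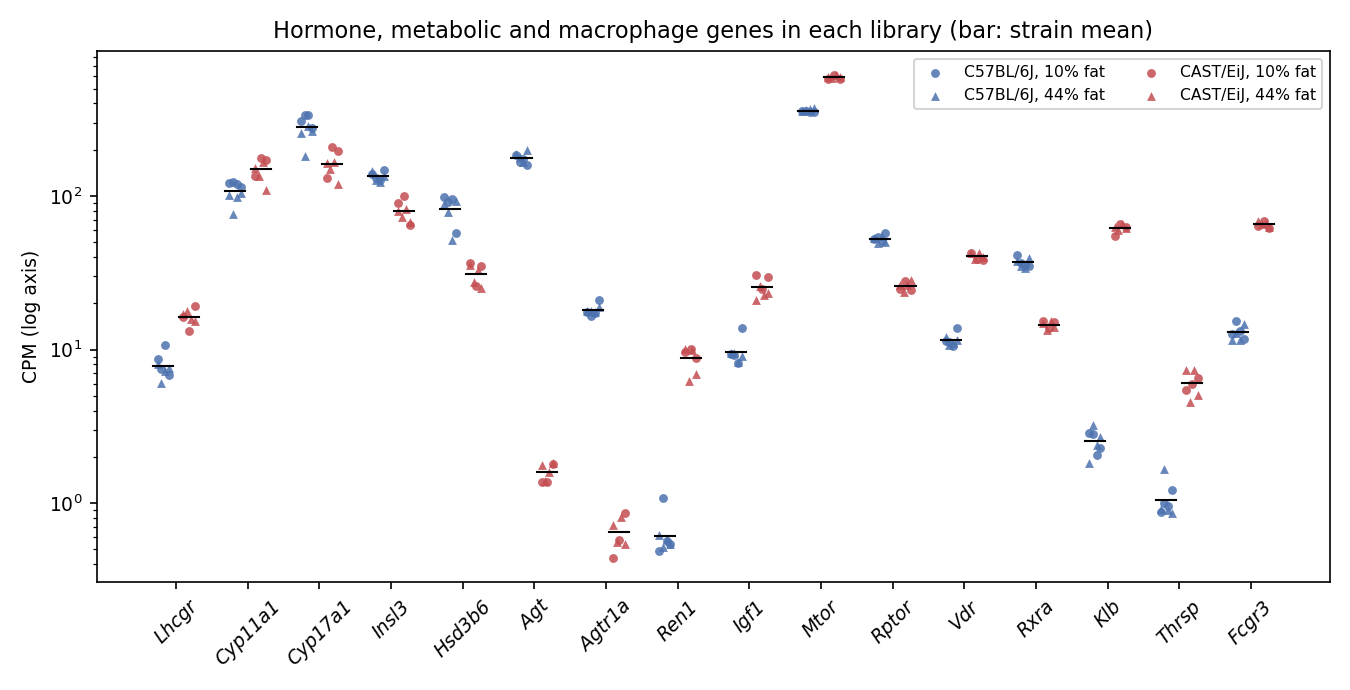
CPM (log axis) of 16 genes in each of the 15 libraries, with C57BL/6J in blue, CAST/EiJ in red, circles for 10% fat, triangles for 44% fat and a black bar for the strain mean. The strains are apart for Agt, Agtr1a and Ren1 on both diets, while Cyp11a1 and Cyp17a1 overlap between strains.

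Insulin, insulin-like growth factor (IGF) and growth hormone signalling bears on the diabetes models of the study. Of 48 genes tested, 22 were higher and 15 lower in CAST/EiJ, 77.1% against 67.6% of all genes, and the list median was 0.054. Igf1, a growth factor made in testis by somatic cells (chromosome 10, 87858265 to 87937042), had 20.9, 24.9 and 30.5 CPM in CAST/EiJ and 8.20, 9.27 and 13.9 in C57BL/6J. It did not overlap between strains and was higher by 1.43 ± 0.08 (adjusted p 2.21e-13). Its binding proteins differed in direction. Igfbp2 was at 23.8 ± 3.08 against 4.88 ± 0.60 CPM (2.29 ± 0.09) and Igfbp3 at 0.922 ± 0.23 against 2.28 ± 0.40 CPM (-1.32 ± 0.16).

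The receptor Insr was modestly lower, at 30.2 ± 2.23 against 37.9 ± 1.44 CPM (-0.33 ± 0.05, adjusted p 9.97e-07). Its relative Insrr, a receptor that senses alkaline pH, had 16.8, 21.2 and 23.7 CPM in CAST/EiJ and no more than 0.341 in C57BL/6J (7.06 ± 0.18). Socs2, a feedback inhibitor of growth hormone signals, was at 11.9 ± 0.90 against 4.38 ± 0.46 CPM (1.44 ± 0.07). Mtor, the kinase that couples nutrients to growth, had 575, 598 and 613 CPM in CAST/EiJ against 352, 358 and 372 CPM. Although the fold was small (0.72 ± 0.03, adjusted p 1.30e-17), the libraries of the strains were well apart. Rptor, the scaffold of mTOR complex 1, was lower in CAST/EiJ, at 25.9 ± 1.72 against 52.8 ± 2.69 CPM (-1.02 ± 0.04).

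Receptors of metabolic hormones differed widely. Of 40 tested, 16 were higher and 14 lower, and 37.5% were at least 2-fold apart, against 21.7% of all genes. Klb, the co-receptor through which FGF21 acts, is not on the receptor list but is among the largest differences of abundant genes (chromosome 5, 65348314 to 65384007). It had 55.0, 62.6 and 66.0 CPM in CAST/EiJ and 1.83, 2.55 and 3.24 in C57BL/6J. The groups did not overlap, and the log2 fold change was 4.61 ± 0.08 (adjusted p 1.06e-23).

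Mc5r, a melanocortin receptor of exocrine glands, was at 7.29 ± 1.19 against 0.108 ± 0.07 CPM (6.11 ± 0.21), and Gcgr, the glucagon receptor, at 5.11 ± 0.59 against 0.0457 ± 0.04 CPM (6.65 ± 0.23). Both genes were near the limit of detection in C57BL/6J. Among nuclear receptors, the vitamin D receptor Vdr had 38.3, 40.2 and 42.8 CPM in CAST/EiJ and 10.5, 11.2 and 13.9 in C57BL/6J (1.82 ± 0.05, adjusted p 2.40e-19). Its dimer partner Rxra differed in the opposite direction, with 13.4, 14.9 and 15.4 against 34.0, 36.2 and 41.2 CPM (-1.34 ± 0.05, adjusted p 4.38e-17), and neither gene overlapped between strains. Rarb, a retinoic acid receptor, was higher by 1.97 ± 0.16 and Ppara, a fatty acid sensor, by 1.08 ± 0.14. Glp2r, a receptor for an intestinal peptide, was lower by 2.49 on the log2 scale (SE 0.17), at 0.366 against 2.08 CPM, and the thyrotropin receptor Tshr lower by 1.01 (SE 0.08).

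In fatty acid uptake and oxidation, 19 of 42 genes were higher and 9 lower (66.7% called, against 67.6% of all genes), with a median of 0.088. The thioesterases Acot1 and Acot2, which free fatty acids from coenzyme A, were at 2.53 ± 0.25 against 0.790 ± 0.31 CPM (1.70 ± 0.18) and 2.81 ± 0.27 against 1.07 ± 0.27 CPM (1.38 ± 0.14). Ucp3, a mitochondrial uncoupling protein, was at 1.82 ± 0.35 against 0.828 ± 0.18 CPM (1.14 ± 0.16). Lower were Cpt2, which releases fatty acids for oxidation inside mitochondria (44.6 ± 3.33 against 66.6 ± 5.24 CPM, -0.58 ± 0.05), and Hsd17b4 of peroxisomal oxidation (31.3 ± 2.22 against 53.3 ± 2.07 CPM, -0.77 ± 0.04).

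Adipose genes were more often higher than lower. Of 13 tested, 7 were higher and 1 lower in CAST/EiJ, beside 32.9% and 34.6% of all genes, with a median of 0.325. Thrsp, a lipogenic gene, had 4.55, 6.01 and 7.37 CPM in CAST/EiJ and 0.858, 0.936 and 1.66 in C57BL/6J (2.54 ± 0.14, adjusted p 1.16e-13). The lipid droplet coat gene Plin1 was at 5.79 ± 1.19 against 2.09 ± 0.57 CPM (1.46 ± 0.14). Plin4, another coat gene, was at 5.56 ± 1.11 against 2.93 ± 0.66 CPM (0.94 ± 0.13). Adipoq, the adipocyte hormone, overlapped between strains at 5.46 ± 1.14 against 4.35 ± 0.52 CPM (0.33 ± 0.10, adjusted p 0.00913). Summed, the 13 genes held 659 to 721 CPM in CAST/EiJ and 626 to 707 in C57BL/6J. The part of fat attached to the testis in these values was not tested.

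In cholesterol synthesis 9 of 26 genes were higher and 11 lower (median -0.064), beside 32.9% and 34.6% of all genes. Pmvk, phosphomevalonate kinase, was at 1.58 ± 0.15 against 8.13 ± 0.48 CPM (-2.36 ± 0.08), while Nsdhl, a later enzyme, was at 18.3 ± 1.24 against 10.2 ± 1.00 CPM (0.84 ± 0.06). From the list of respiratory chain genes, Nnt, the mitochondrial transhydrogenase that makes NADPH and is known to carry a deletion of exons in C57BL/6J, was at 92.8 ± 3.26 CPM in CAST/EiJ and 59.4 ± 2.56 in C57BL/6J (0.64 ± 0.04). Cytochrome P450 enzymes of families 2, 3 and 4, which oxidise steroids, fatty acids and drugs, were mostly higher: 17 of 29 were higher and 8 lower, 13 and 4 of them by 2-fold or more, with a median of 0.80. Over all genes tested 32.9% were higher and 34.6% lower, 8.43% and 13.2% by 2-fold or more. Cyp2c29 was at 8.54 ± 0.99 against 0.596 ± 0.14 CPM (3.84 ± 0.12) and Cyp2f2 at 8.005 ± 0.88 against 0.483 ± 0.20 CPM (3.99 ± 0.15). Of the glutathione transferases, which conjugate electrophiles, Gstm7 was at 83.9 ± 3.68 against 37.1 ± 3.62 CPM (1.18 ± 0.05) and Gsta3 at 6.11 ± 0.72 against 31.4 ± 2.51 CPM (-2.35 ± 0.07). Akr1c12, an aldo-keto reductase, was at 0.161 ± 0.12 against 1.26 ± 0.25 CPM (-3.00 ± 0.29).

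Sertoli markers had 8 of 22 genes higher and 3 lower, none by 2-fold, and 11 were not called. They differed less often than all genes, of which 67.6% were called and 21.7% were at least 2-fold apart. Cst9, a cystatin of Sertoli cells, was at 98.0 ± 8.32 against 67.9 ± 5.59 CPM (0.53 ± 0.05) and Fshr, their receptor for follicle-stimulating hormone, at 2.45 ± 0.38 against 1.66 ± 0.22 CPM (0.57 ± 0.12). Kitl, the Sertoli ligand that spermatogonia need, was lower, at 17.4 ± 1.42 against 29.5 ± 3.86 CPM (-0.76 ± 0.07). None of the 12 peritubular myoid genes was higher and 9 were lower, beside 32.9% and 34.6% of all genes, and their summed level was 254 to 296 CPM in CAST/EiJ and 409 to 463 in C57BL/6J. Des, desmin, was at 2.84 ± 0.47 against 5.10 ± 0.77 CPM (-0.85 ± 0.11), and Actg2, smooth muscle actin gamma, which holds 209 CPM of the C57BL/6J sum, at 88.5 ± 4.38 (-1.24 ± 0.04).

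Endothelial genes were split, with 6 of 13 higher and 4 lower (76.9% called, against 67.6% of all genes). Flt1, a receptor for vascular growth factor, was at 16.3 ± 1.59 against 5.99 ± 0.71 CPM (1.45 ± 0.08), and Vwf, the clotting factor of endothelium, at 16.1 ± 2.02 against 28.6 ± 2.23 CPM (-0.83 ± 0.07). Leukocyte genes were split too, with 6 of 19 in each direction (63.2% called). Fcgr3, an antibody receptor of macrophages, had 61.6, 66.1 and 68.5 CPM in CAST/EiJ and 11.5, 12.7 and 15.4 in C57BL/6J (2.33 ± 0.06, adjusted p 1.09e-20), whereas Adgre1, which encodes the macrophage antigen F4/80, was at 2.58 ± 0.17 against 5.13 ± 0.63 CPM (-0.98 ± 0.09).

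Matrix genes had 14 of 41 higher and 19 lower (80.5% called, against 67.6% of all genes). The protease inhibitors were higher, Timp1 at 3.51 ± 0.41 against 0.401 ± 0.13 CPM (3.11 ± 0.16) and Timp2 at 272 ± 28.9 against 141 ± 10.6 CPM (0.96 ± 0.06). So was Lama1, a laminin chain of the tubule basement membrane, at 49.7 ± 3.13 CPM against 20.3 to 22.65 CPM over the C57BL/6J libraries (1.24 ± 0.04). Nid2, which links laminin to collagen, was lower at 9.16 ± 0.51 against 28.5 ± 1.75 CPM (-1.64 ± 0.05), and the fibril collagen gene Col14a1 at 3.33 ± 0.80 against 19.2 ± 0.72 CPM (-2.51 ± 0.09).

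Undifferentiated spermatogonia had 6 of 12 genes higher and 1 lower (58.3% called, against 67.6% of all genes), with a median of 0.150. The higher genes included Ret, the receptor for the niche factor GDNF (3.03 ± 0.37 against 1.39 ± 0.34 CPM, 1.16 ± 0.13), and Zbtb16, a transcription factor of stem cells (9.003 ± 1.26 against 6.13 ± 1.07 CPM, 0.56 ± 0.10). Differentiating spermatogonia had 3 of 10 genes higher and 2 lower, also a smaller share called than the 67.6% of all genes. Uchl1 of that list, a deubiquitinase, was at 44.3 ± 1.85 against 29.3 ± 2.15 CPM (0.60 ± 0.04).

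Meiotic genes had 10 of 38 higher and 14 lower (63.2% called, against 67.6% of all genes), and 1 was 2-fold apart. That gene was Ankrd31, which is needed for DNA breaks in the region shared by X and Y (chromosome 13, 96748272 to 96910039). It had 20.97, 24.1 and 25.3 CPM in CAST/EiJ and 69.3, 79.5 and 87.1 in C57BL/6J, without overlap, and was lower by 1.74 on the log2 scale (SE 0.05, adjusted p 1.07e-18). Ccdc36, also called Iho1, which acts in the same machinery of break formation, was at 8.59 ± 1.03 against 16.9 ± 0.77 CPM (-0.98 ± 0.06). The meiotic cohesin Rec8 was at 46.0 ± 2.59 against 70.4 ± 4.86 CPM (-0.62 ± 0.05) and the crossover helicase Hfm1 at 46.7 ± 2.26 against 70.7 ± 6.47 CPM (-0.60 ± 0.05), while the cohesin subunit Stag3 was higher at 761 ± 25.3 against 536 ± 22.3 CPM (0.51 ± 0.03). Syce3, of the synaptonemal complex that joins homologues, was at 33.9 ± 1.90 against 19.9 ± 1.55 CPM (0.77 ± 0.05).

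Spermatid genes that package DNA differed little in size of change. Tnp1, a transition protein, was at 1872 ± 77.0 against 1670 ± 116 CPM (0.17 ± 0.04, adjusted p 0.000703), with ranges that overlapped. Prm1 was at 1218 ± 92.9 against 1371 ± 92.7 CPM (-0.17 ± 0.05, adjusted p 0.00213), and Prm2 (0.09 ± 0.04, adjusted p 0.0547) and Tnp2 (-0.10 ± 0.06, adjusted p 0.119) were not called. Elongating spermatid genes had 9 of 21 higher and 3 lower, none by 2-fold (57.1% called, against 67.6% of all genes). Genes of the flagellar axoneme, the microtubule core of the sperm tail, had 23 of 48 higher and 14 lower (77.1% called). Their median was 0.080, and their summed level was 21660 to 22560 CPM in CAST/EiJ against 16770 to 17530 in C57BL/6J. The dynein gene Dnah8 holds 6183 and 2708 CPM of these sums. Rsph1, of the radial spoke head, had 1834, 1942 and 1983 CPM in CAST/EiJ and 645, 768 and 825 in C57BL/6J (1.33 ± 0.04, adjusted p 2.32e-19).

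Other spoke genes differed from it. Rsph9 was at 39.4 ± 2.15 against 71.4 ± 6.13 CPM (-0.86 ± 0.05), and Rsph3b, which is not on the list, at 14.01 ± 2.02 against 266 ± 14.7 CPM (-4.24 ± 0.07). Rsph3b has a close relative, Rsph3a, which was chosen after its values were seen and stood at 438 against 341 CPM. The sum of both genes was 452 ± 24.2 CPM in CAST/EiJ and 608 ± 36.4 in C57BL/6J, a log2 ratio of -0.43, so the level of Rsph3b alone is uncertain. Ppp1cc, the phosphatase whose loss makes male mice sterile, had 286, 292 and 306 CPM against 724, 763 and 781 CPM in C57BL/6J (-1.36 ± 0.03, adjusted p 7.37e-22), with no overlap.

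Acrosome and egg fusion genes had 11 of 42 higher and 15 lower (61.9% called, against 67.6% of all genes). Hyal6, a hyaluronidase, was at 66.6 ± 4.65 against 145 ± 10.8 CPM (-1.12 ± 0.05). Tmem95, a sperm membrane protein needed to fuse with the egg, was at 6.41 ± 0.64 against 2.41 ± 0.38 CPM (1.42 ± 0.10).

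The sex chromosomes stood apart from the autosomes in different ways. Of the 170 Y genes tested 67.1% were lower and 11.2% higher, and 54.1% were at least 2-fold lower, with a median of -1.22. On X, 35.6% of 953 genes were higher and 23.9% lower, beside 32.9% and 34.6% of all genes. Only the share of lower genes set X apart. The lowest such share of an autosome was 31.0%, on chromosome 8, while chromosome 15 had 36.8% higher. Among autosomes, chromosome 14 had the largest share of genes at least 2-fold lower, 20.4%. The longest run of neighbouring genes that were all at least 2-fold lower was 17 genes of the Y (6454156 to 9202190, median -6.59), and of runs of at least 4 such genes 10 lay on the Y and 9 on chromosome 14.

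**Figure D3:**
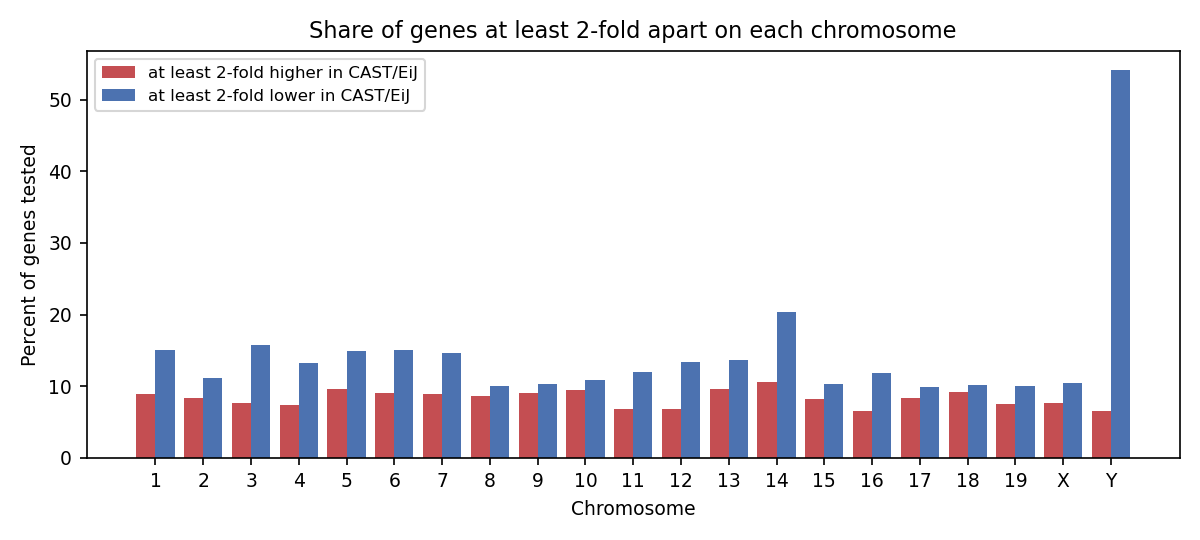
Percent of the genes tested on each chromosome that were at least 2-fold higher (red) or lower (blue) in CAST/EiJ at an adjusted p under 0.05. The Y has 54.1% lower and chromosome 14 has 20.4%, against 13.2% of all genes.

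Multicopy genes of X and Y, which are known to act against each other in spermatids, had 16 of 45 higher and 15 lower (68.9% called, against 67.6% of all genes). The Y-linked Sly was at 1.10 ± 0.20 against 2.54 ± 0.35 CPM (-1.19 ± 0.12), and Ssty1, of the Spindlin family, at 0.0858 ± 0.06 against 1.98 ± 0.75 CPM (-4.38 ± 0.35), while Ssty2 of the same family was at 13.2 ± 0.64 against 8.71 ± 1.60 CPM (0.59 ± 0.08). The X-linked Slxl1 was at 1.48 ± 0.27 against 16.1 ± 1.08 CPM (-3.46 ± 0.08). Its near copy Gm14625 had 20.4 CPM in CAST/EiJ and 2.40 in C57BL/6J, and Slxl1, Slx and Gm14625 together had 22.3 ± 1.51 and 18.7 ± 1.32 CPM. Counts of single copies are therefore uncertain.

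Zfy1 and Zfy2, a pair of zinc finger genes of the Y, act at meiotic checkpoints and in sperm. Zfy1 had 15.5, 17.9 and 18.2 CPM in CAST/EiJ and 5.97, 6.90 and 8.05 in C57BL/6J (1.33 ± 0.06, adjusted p 2.22e-15). Zfy2 had 5.74, 6.33 and 7.60 against 10.5, 13.3 and 15.3 CPM (-1.002 ± 0.08, adjusted p 7.93e-11). Each gene was apart between strains, in opposite directions, and their sum was 23.9 ± 1.31 against 20.1 ± 1.88 CPM.

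Genes of the interferon response and of antigen presentation were mostly lower. Of 35 interferon response genes 25 were lower and 5 higher in CAST/EiJ, with a median of -0.69, and of 26 genes of antigen presentation 17 were lower and 2 higher, with a median of -0.88. Over all genes tested 34.6% were lower and 32.9% higher, with a median of -0.005. Irf7, a transcription factor that amplifies interferon, was at 0.353 ± 0.12 against 1.12 ± 0.32 CPM (-1.67 ± 0.23), and Ifit3, an antiviral effector, at 0.132 ± 0.08 against 1.04 ± 0.13 CPM (-2.83 ± 0.27). Iigp1, a GTPase that attacks the vacuoles of parasites, had 0 counts in all 7 CAST/EiJ libraries and 2.11 ± 0.71 CPM in C57BL/6J. With 3 counts over the group taken as the floor, it was at least 205-fold lower. The antiviral GTPases Mx1 and Mx2 were higher, at 3.38 ± 0.48 against 1.47 ± 0.31 CPM (1.20 ± 0.13) and 3.52 ± 0.61 against 1.68 ± 0.28 CPM (1.06 ± 0.12).

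Of 22 interferon response genes with a RefSeq promoter (GRCm38.p6, 250 bases before to 50 after the start), 15 (68.2%) held the interferon-stimulated response element. It was searched on both strands as GAAA, 2 bases of any kind and GAAA. Of 27025 genes with such a promoter 3.99% held it, and of the 14243 of them tested here 3.54%. Of the listed genes that were lower, 18 had such a promoter, and 12 of these (66.7%) held it, no more than the share of the list. No listed gene that was higher had such a promoter, so the element could not be compared between directions. Neighbouring GTPase genes on chromosome 11 were among the lower genes. Tgtp1, Tgtp2 and Ifi47 were chosen after their values were seen, as members of a run of 5 genes that were at least 2-fold lower. Tgtp2 had 0 counts in CAST/EiJ and 0.866 ± 0.47 CPM in C57BL/6J, which makes it at least 84.1-fold lower by the same floor. Tgtp1 was at 0.326 ± 0.14 against 0.724 ± 0.29 CPM (-1.17 ± 0.28), and because the genes are close relatives, the sum of 0.326 ± 0.14 against 1.59 ± 0.63 CPM is the firmer value. Ifi47 was at 0.239 ± 0.10 against 0.697 ± 0.23 CPM (-1.57 ± 0.29). Windows of 100 bases upstream of the RefSeq start are printed for 4 genes that were lower and whose promoter holds the element. Oasl2, also lower and searched in the same way, gave no such window. The windows run 5′ to 3′ on the strand of the gene, from the C57BL/6J reference, with the element in capitals. Their positions are chr11:48992264-48992363 for Tgtp1 and chr11:49064223-49064322 for Tgtp2 on the minus strand, and chr19:34583333-34583432 for Ifit3 and chr10:128270248-128270347 for Stat2 on the plus strand. The Tgtp1 window lies inside the gene as annotated for the counts (48985327 to 48994172). Ifit3 holds 2 elements in its window and the others hold 1.
Tgtp1: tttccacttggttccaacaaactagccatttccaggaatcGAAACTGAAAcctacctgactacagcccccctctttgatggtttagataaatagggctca
Tgtp2: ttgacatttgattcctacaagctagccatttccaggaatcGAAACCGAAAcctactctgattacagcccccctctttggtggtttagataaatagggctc
Ifit3: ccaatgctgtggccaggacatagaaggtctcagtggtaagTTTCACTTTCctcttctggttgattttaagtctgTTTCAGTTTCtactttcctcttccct
Stat2: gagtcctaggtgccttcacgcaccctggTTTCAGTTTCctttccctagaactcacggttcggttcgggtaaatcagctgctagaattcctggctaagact

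Of the genes of antigen presentation, the class I heavy chain gene H2-D1 had 3.81, 4.51 and 5.06 CPM in CAST/EiJ and 12.9, 15.8 and 18.6 in C57BL/6J (-1.82 ± 0.08, adjusted p 3.26e-15), and B2m, the light chain, was at 15.2 ± 2.57 against 23.4 ± 2.90 CPM with ranges that overlapped (-0.63 ± 0.09). Tapbpl, which edits peptides on class I, was at 1.03 ± 0.21 against 3.82 ± 0.85 CPM (-1.92 ± 0.15), and H2-T24, a nonclassical gene, at 0.183 ± 0.11 against 1.39 ± 0.33 CPM (-2.95 ± 0.26). Nlrc5, the activator of class I genes, was higher at 15.5 ± 2.99 against 8.24 ± 0.69 CPM (0.90 ± 0.09). Class I genes vary strongly in sequence between strains and resemble each other, so single values of heavy chains are uncertain.

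Complement and coagulation genes had 12 of 36 in each direction, 66.7% called beside 67.6% of all genes. C4b and C4a, near-identical genes of complement factor 4, were at 6.57 ± 1.16 against 28.2 ± 2.08 CPM (-2.11 ± 0.08) and 9.02 ± 1.02 against 3.602 ± 0.24 CPM (1.33 ± 0.07), and their sum was 15.6 ± 1.96 against 31.8 ± 1.97 CPM. C2, another early component, was at 9.97 ± 1.06 against 19.4 ± 1.75 CPM (-0.96 ± 0.07), and F5, coagulation factor V, at 9.09 ± 0.64 against 35.6 ± 1.17 CPM (-1.97 ± 0.05). Serpina5, the protein C inhibitor and a member of the serpin family, without which male mice are infertile, had 187, 191 and 200 CPM in CAST/EiJ and 63.0, 67.2 and 71.4 in C57BL/6J (1.501 ± 0.03, adjusted p 4.74e-22).

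**Figure D4:**
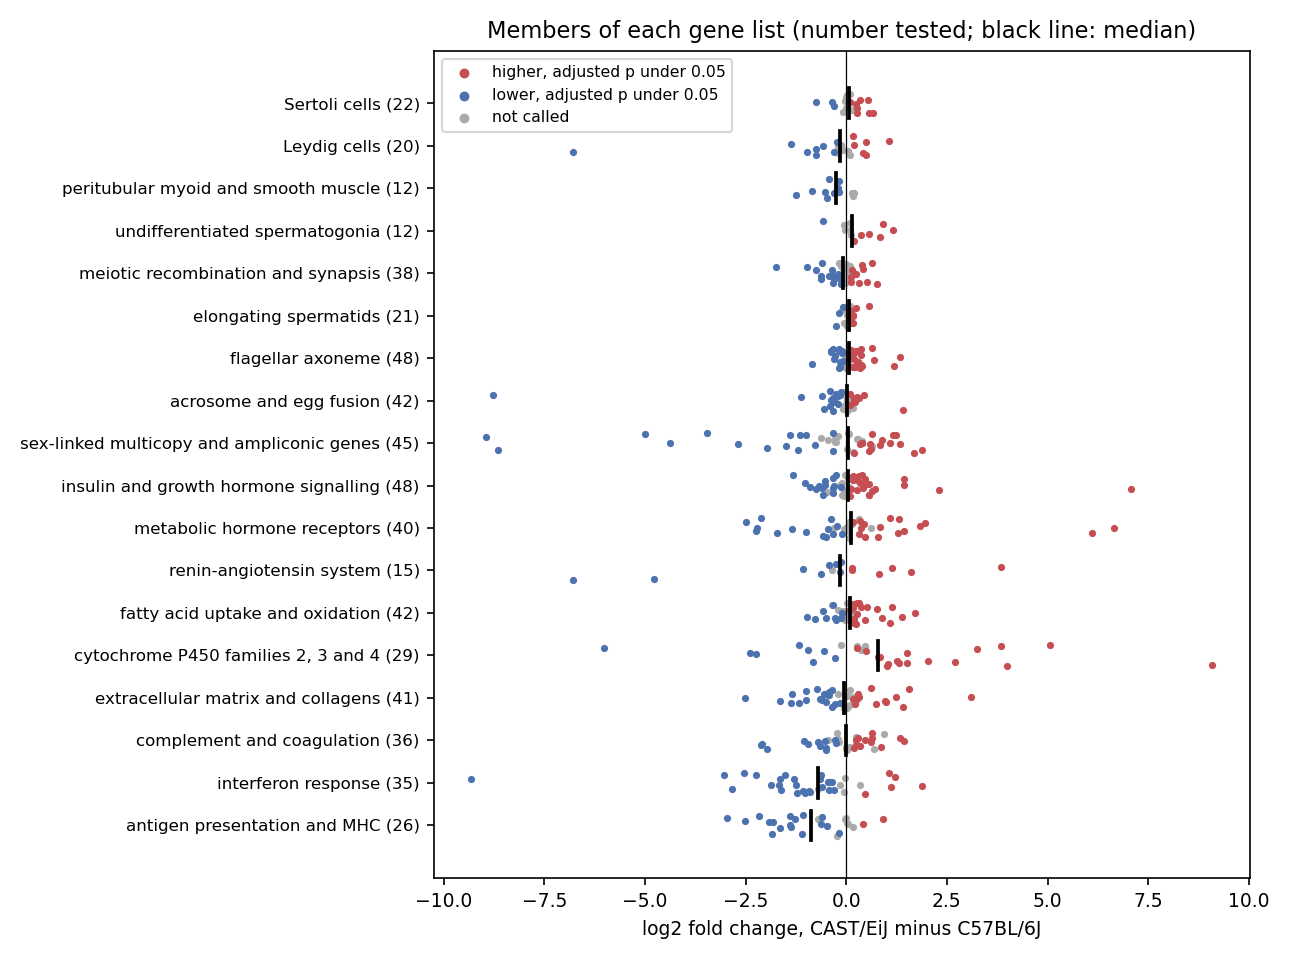
Log2 fold change, CAST/EiJ minus C57BL/6J, of every tested member of 18 gene lists, with the number tested in brackets. Red points are genes higher and blue points genes lower at an adjusted p under 0.05, grey points were not called, and a black line marks the list median, which is lowest for interferon response (-0.69) and antigen presentation (-0.88).

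Some of the widest differences among abundant genes lay in genes of no list above. Nfatc1, a calcium-regulated transcription factor, had 105, 123 and 126 CPM in CAST/EiJ and 2.38, 2.90 and 3.23 in C57BL/6J (5.397 ± 0.06, adjusted p 4.68e-27). Myo7b, a myosin of microvilli, was at 70.4 ± 4.71 against 1.72 ± 0.36 CPM (5.33 ± 0.08), and Sgsm1, a regulator of small GTPases, at 59.96 ± 4.35 against 2.37 ± 0.40 CPM (4.67 ± 0.07). In all 3 the lowest CAST/EiJ library was far above the highest C57BL/6J library.

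Fkbp10, a chaperone of collagen folding (chromosome 11, 100415697 to 100424824), had 112, 127 and 139 CPM against 4.79, 5.58 and 6.52 CPM (4.48 ± 0.05, adjusted p 2.41e-26). It overlaps Nt5c3b on the other strand, and strand use in the counting is not given. Tns3, a focal adhesion protein, was at 168 ± 7.73 against 24.8 ± 1.42 CPM (2.77 ± 0.04), and Npc1, which exports cholesterol from lysosomes, at 64.5 ± 3.97 against 8.38 ± 0.62 CPM (2.95 ± 0.05). Ncam2, a neural adhesion molecule, was at 20.1 ± 0.82 against 0.273 ± 0.14 CPM (6.14 ± 0.13), and Hcn4, a pacemaker channel, at 7.12 ± 1.02 against 0.159 ± 0.10 CPM (5.51 ± 0.19). Dynlt1c, a dynein light chain gene, was at 105 ± 7.18 against 15.9 ± 1.28 CPM (2.72 ± 0.05). It is 1 of 4 near-identical neighbours, of which Dynlt1b, chosen after its values were seen, was at 1099 against 228 CPM, and the sum of the 4 was 1874 ± 97.7 against 657 ± 54.1 CPM.

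Genes that were nearly absent from CAST/EiJ included Cntnap5b, a contactin-associated protein (chromosome 1, 99772765 to 100485942), which had 1.71, 1.91 and 2.02 CPM against 78.7, 83.2 and 94.4 CPM in C57BL/6J (-5.46 ± 0.05, adjusted p 2.17e-27). Svbp, the partner of the enzymes that cut tyrosine from tubulin, was at 1.84 ± 0.26 against 51.8 ± 2.34 CPM (-4.82 ± 0.06). Col2a1, the main collagen gene of cartilage, was at 1.18 ± 0.33 against 56.4 ± 3.75 CPM (-5.61 ± 0.09). No CAST/EiJ library of these 3 genes came near C57BL/6J.

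Lower-level genes of the same pattern were Gdf9, a growth factor best known from oocytes, at 0.168 ± 0.06 against 8.81 ± 0.52 CPM (-5.58 ± 0.13), Grik2, a glutamate receptor subunit, at 0.0847 ± 0.04 against 7.38 ± 0.66 CPM (-6.42 ± 0.15), Cngb3, a channel subunit of cone photoreceptors, at 0.106 ± 0.06 against 11.3 ± 1.28 CPM (-6.73 ± 0.16), and Prss56, a protease of the eye, at 0.178 ± 0.08 against 12.1 ± 1.31 CPM (-6.01 ± 0.14).

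Some runs of neighbouring genes held several members of 1 family. A run of 10 neighbours that were lower, with a median of -2.19, held 9 protocadherin beta genes, which encode neuronal adhesion molecules, among them Pcdhb22 at 0.312 ± 0.14 against 2.85 ± 0.47 CPM (-3.13 ± 0.19). Of the 13 tissue kallikrein genes tested, which encode secreted proteases, 8 were higher and 4 lower, beside 32.9% and 34.6% of all genes. By 2-fold or more, 7 were higher and 4 lower, beside 8.43% and 13.2% of all genes. Their median was 1.16. Summed, the 13 genes overlapped between strains, at 58.4 to 100 CPM in CAST/EiJ and 63.1 to 80.3 in C57BL/6J. Klk1 was at 4.04 ± 0.63 against 1.44 ± 0.44 CPM (1.47 ± 0.14) and its neighbour Klk1b3 at 4.86 ± 0.61 against 1.43 ± 0.19 CPM (1.76 ± 0.11), within a run of 6 genes that were higher.

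Some of the largest fold changes were in genes that have a near-identical copy elsewhere in the genome. Among the 743 higher and 1522 lower genes that passed 4-fold and have a transcript in GENCODE M21, 307 pairs with opposite direction matched at 95% identity or more over at least 300 bases. They joined 73 higher with 120 lower genes. In 179 pairs both genes reached 1 CPM in the strain where they were high, and in 102 of these the sum of the pair was within 2-fold between strains. Pairs were chosen for opposite directions, which by itself draws their sums toward no change, and some pairs share a gene. The count is therefore a description, and the share in pairs chosen otherwise was not computed. Reads of such copies differ at few bases, so the share each copy receives is uncertain and the sum is the firmer value.

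Ribosomal proteins, the constant parts of the translation machinery, are the plainest case, because their genes have many processed copies. Rpl9 on chromosome 5 and Rpl9-ps6 on chromosome 19 differ at 1 of 596 aligned bases, Rpl19 on chromosome 11 and Rpl19-ps11 on chromosome 8 at 1 of 591, Rps13 on chromosome 7 and Rps13-ps1 on chromosome 8 at 2 of 522, and Rps12 on chromosome 10 and Rps12-ps3 on chromosome 19 at 0 of 400. The 60 coding bases around the single difference of each of the first 2 pairs are printed in RNA sense, from the GENCODE M21 transcripts of the C57BL/6J genome (GRCm38), with the differing base in capitals.
Rpl9: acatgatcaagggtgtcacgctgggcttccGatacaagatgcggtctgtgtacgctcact
Rpl9-ps6: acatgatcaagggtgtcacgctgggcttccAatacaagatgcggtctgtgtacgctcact
Rpl19: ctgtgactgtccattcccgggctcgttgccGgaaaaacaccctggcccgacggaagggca
Rpl19-ps11: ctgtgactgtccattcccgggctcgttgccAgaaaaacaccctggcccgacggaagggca

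Rpl9 had 75.4, 86.8 and 88.2 CPM in CAST/EiJ and 7.27 to 12.7 in C57BL/6J, and Rpl9-ps6 had at most 0.263 CPM in CAST/EiJ and 77.3, 83.4 and 99.8 in C57BL/6J. The strains were apart for each gene, by 2.92 ± 0.08 and -9.86 ± 0.15, while the sums were 83.3 ± 5.48 and 97.4 ± 7.32 CPM, a log2 ratio of -0.23. For Rpl19 the gene was at 113 ± 4.74 against 19.1 ± 4.24 CPM (2.56 ± 0.10) and its copy at 0.148 ± 0.12 against 102 ± 7.59 CPM (-9.45 ± 0.13), and the sums were 113 ± 4.78 and 121 ± 8.58 CPM. Rpl17 and Rpl17-ps8 gave 116 ± 6.18 and 115 ± 9.23 CPM in sum, although Rpl17 alone was 5.19 ± 0.12 higher and its copy 7.39 ± 0.16 lower on the log2 scale. For Rps12, whose copy is identical over the aligned bases, the gene was at 58.2 ± 2.78 against 1.31 ± 0.68 CPM (5.44 ± 0.14) and the sum at 60.3 ± 2.84 against 55.3 ± 4.61 CPM.

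For other pairs the parent gene was lower and the copy higher. Rps13 was at 22.9 ± 1.86 against 116 ± 9.38 CPM (-2.34 ± 0.06) and Rps13-ps1 at 60.5 ± 4.34 against 0.672 ± 0.89 CPM (6.45 ± 0.26), and the sum was 83.4 ± 3.64 against 116 ± 9.52 CPM, without overlap. Without C57BL/6J 10% fat replicate 1 the value of Rps13-ps1 was 7.23. Rpl29 was at 27.8 ± 3.69 against 130 ± 9.12 CPM (-2.23 ± 0.07) and Gm10709 at 85.8 ± 5.84 against 0.177 ± 0.08 CPM (8.91 ± 0.10), with sums of 114 ± 9.20 and 130 ± 9.09 CPM. Over the 83 ribosomal protein genes tested, 12 were at least 2-fold apart by gene and 3 when each was summed with its near copies. The SD of the log2 fold change over these genes was 1.12 by gene and 0.347 by sum. Of the 3, Rps15, chosen after its values were seen, was lower, at 43.7 ± 1.92 against 106 ± 13.4 CPM summed with its copy (log2 ratio -1.28), and Rpl3l and Rpl6l stood under 0.5 CPM in both strains.

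**Figure D5:**
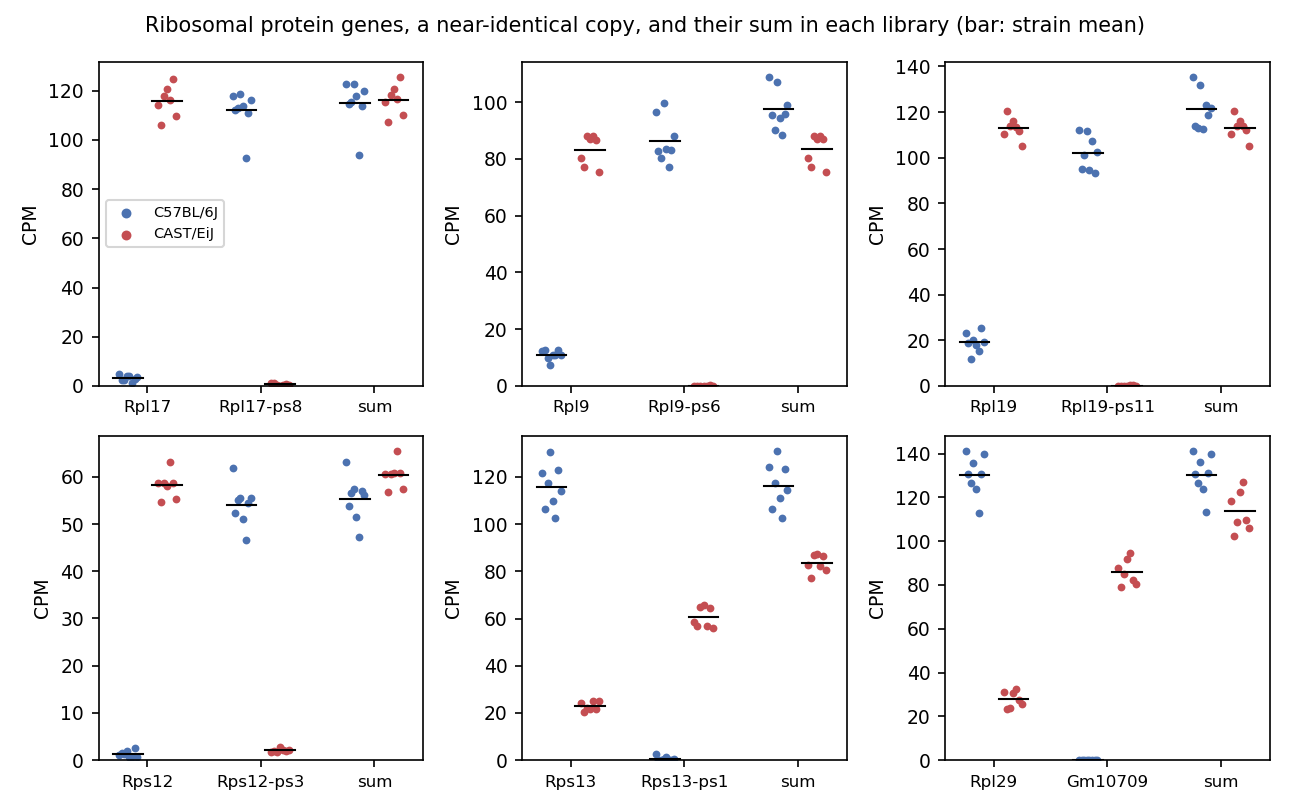
CPM of 6 ribosomal protein genes, of a near-identical copy of each, and of the sum of both in every library, with C57BL/6J in blue, CAST/EiJ in red and a bar for the strain mean. The gene and its copy lie far apart between strains, while the sums of Rpl17 are 116 CPM in CAST/EiJ and 115 CPM in C57BL/6J.

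The mitochondrial gene mt-Co2, which encodes a subunit of cytochrome oxidase, was the most abundant case. It had 1.40, 1.90 and 3.72 CPM in CAST/EiJ and 762, 838 and 916 in C57BL/6J (-8.49 ± 0.12), and Gm13341, a nuclear copy on chromosome 2 (22587291 to 22587962), had 466.3, 688 and 751 CPM in CAST/EiJ and at most 0.154 in C57BL/6J (12.87 ± 0.14). The sums were 655 ± 93.5 and 846 ± 52.3 CPM and did not overlap. The copies differ at 16 of 672 aligned bases in the C57BL/6J reference, more than in the ribosomal pairs above. The CAST/EiJ sequences of both were not examined, so these bases need not tell CAST/EiJ reads apart. The share of each gene in CAST/EiJ is therefore uncertain. A stretch of 120 bases of both is printed from the reference, in RNA sense, with the bases that differ in the reference in capitals.
mt-Co2: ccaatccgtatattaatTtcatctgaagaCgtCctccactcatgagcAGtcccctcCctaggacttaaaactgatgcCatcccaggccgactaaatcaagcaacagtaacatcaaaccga
Gm13341: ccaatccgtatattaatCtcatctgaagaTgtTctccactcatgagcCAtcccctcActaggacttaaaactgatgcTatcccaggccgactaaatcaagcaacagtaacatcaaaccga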

How the data were processed

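Per the labels, polyA RNA was prepared with KAPA mRNA HyperPrep reagents and sequenced as 100 bp pairs. The authors deposited estimated counts per gene and a table of variance-stabilised log2 values. The submitters' processing notes name GRCm38 and DESeq2. Not given in the sources used here: the aligner, the counter and its strand setting. Every deposited gene was above 0 in at least 12 libraries of the series, so a gene expressed in 1 strain alone can be missing.

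Estimated counts were rounded. Genes were filtered with filterByExpr on the 4 groups and tested with edgeR 4.0.16 (quasi-likelihood F test) with TMM scaling and diet as a covariate, with Benjamini-Hochberg adjustment over 22278 genes and a threshold of 0.05. Means per diet and their interaction came from a fit of 4 group means. Values are mean ± SD with n = 7 CAST/EiJ and n = 8 C57BL/6J libraries, and fold changes carry the SE worked back from the F test. The labels do not say more than that samples are separate, so p-values measure the spread between these samples. Over 21 pairs of replicates the chi-square per degree of freedom was at least 3.99, so no library appeared to be deposited more than once. The test was checked on simulated counts. Bounds and floors cover counting error only.

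Near copies were found with BLAST 2.17.0 in GENCODE M21 transcripts. Promoters came from RefSeq. Genes named were, with an official symbol, the 20 largest changes per direction at 5 CPM or more and the 15 at 50 CPM or more, without overlap between strains, up to 4 members per list and direction at 1 CPM or more, the 10 smallest interaction p-values, and members of near-copy pairs and of the 12 longest runs. Of these, only some are described. Other members of the lists, and genes said to be so, were chosen after their values were seen. The comparison and the gene lists were chosen with earlier results of these data known. Of 159 named genes, 110 overlapped no other gene of the table. Alternatives were RLE scaling, no filter or a stricter one, all 23 libraries, the ID run in the sample titles as a term, other models and tests, DESeq2 1.42.0, limma 3.58.1 on the deposited log2 values, and each library left out.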

Additional observations from a re-analysis of the deposited data

Results flagged for a closer look

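In 26 of 318 sets of values (159 genes in each of the 2 strains) 1 library lay far from the others of its strain, where chance alone flags about 1 in 20 sets. The C57BL/6J 10% fat replicate 4 library, the one with the lowest total, was apart for Ldhc (2373 CPM), Igf1 (13.9), Vdr (13.9), Stag3 (586.5), Rsph1 (645), Tns3 (28.2) and Rpl17-ps8 (92.8). The C57BL/6J 10% fat replicate 2 library was apart for Crisp1 (12.8 CPM), Spink8 (2.00), Ren1 (1.08) and Gm38120 (2.26), and CAST/EiJ 44% fat replicate 2 for Crisp1 (96.7 CPM), Spink8 (23.9), Mme (14.2) and B2m (20.5). CAST/EiJ 10% fat replicate 3 was apart for Star (119 CPM), Hfm1 (51.5) and Nfatc1 (105). In single cases, C57BL/6J 10% fat replicate 1 was apart for Amh (1.36 CPM), CAST/EiJ 10% fat replicate 1 for Socs2 (10.1), CAST/EiJ 44% fat replicate 1 for Dynlt1c (90.6) and replicate 3 for Ucp3 (1.13). Among C57BL/6J on 44% fat, replicate 1 was apart for Lama1 (22.65 CPM) and H2-T24 (2.125), replicate 2 for Thrsp (1.66) and replicate 3 for Tgtp1 (1.335).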

How the results depend on the processing

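No paired analysis was possible because the labels carry no replicate numbers. A term for the run of IDs in the titles, where each run holds both strains and both diets, gave 14869 genes that differed. Leaving out 1 library at a time gave 14618 to 14952 genes that differed, 11175 to 12158 on 10% fat and 11972 to 12988 on 44% fat, 1836 to 1956 genes 2-fold higher and 2882 to 3073 lower, 59 to 70 runs and 285 to 305 near-copy pairs. The interaction called 0 genes in every setting. Testing against a fold of 1.5 left 5652 genes, of which 59.7% were lower against 51.2% in the main test. Asking for at least 1 CPM in every library of 1 strain, which tests fewer genes, gave 1089 genes 2-fold higher and 1610 lower, 19 runs and 133 near-copy pairs. The 44% fat libraries alone gave 42 runs. On the deposited variance-stabilised values, whose differences are compressed, limma gave 270 genes 2-fold higher and 421 lower, 1 run and 6 near-copy pairs. Acrv1, which was not called (0.02 on the log2 scale), changed sign with the stricter filter (-0.001), on 44% fat alone (-0.041), without C57BL/6J 10% fat replicate 2 (-0.011), without CAST/EiJ 10% fat replicate 2 (-0.008; the range without 1 library reached 0.035) and without both libraries with epididymal transcripts (-0.015). Without C57BL/6J 10% fat replicate 2, Spink8 was higher by 4.14 in place of 3.43. Leaving out the 2 libraries and summing ribosomal copies were chosen after seeing the data.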
